A study of Mus musculus with 6 samples.

Results

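Collagens, laminins and integrins were examined as one module in RNA-seq of mouse retina after optic nerve crush (ONC). The members were all genes whose symbol starts with Col, a number, a and a number, with Lama, Lamb or Lamc and a number, or with Itga or Itgb and a number. The rule matched 79 of the 35485 genes, and the 48 with a mean above 0.3 RPKM over the 6 samples are described here. RPKM is the number of exon reads divided by exon length and by the reads of the library. Of these 48, 28 encode collagen chains, 5 laminin chains and 12 integrin subunits. The other 3 matched by name alone. Col4a3bp encodes a ceramide transfer protein, Itgb1bp1 a cytoplasmic protein that binds the integrin beta 1 tail, and Itgb3bp a protein known from the centromere. The rule used the mean level over all samples and no difference between the groups.

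All mice were wild type C57BL/6 males at 12 weeks of age, operated on under ketamine and xylazine. ONC was a forceps injury of the optic nerve, lasting 10 seconds and placed 2 mm behind the eye, and sham surgery laid the nerve bare without injuring it. Retinas were taken 2 days later. Each group had 3 samples, and each sample combined RNA from 6 retinas of 6 mice, so the spread between samples is that between pools and not between single mice.

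Collagens are secreted as trimers of chains and form fibrils, networks or filaments of the extracellular matrix. Laminins are trimers of an alpha, a beta and a gamma chain and, with type IV collagen, build basement membranes, which in the retina form the inner limiting membrane and surround the vessels. Integrins are pairs of an alpha and a beta subunit that bind these proteins outside the cell and link them to the actin cytoskeleton inside it.

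Differentially expressed genes (DEGs) had an FDR under 0.1 and a fold change (FC) above 1.5 in edgeR's test of exon reads. Among the 48 members there were 2 DEGs, the fibrillar collagen genes Col5a3 and Col11a1, and both were upregulated. This was 2 of 48 beside 1.66% of the 13670 genes tested in either direction and 0.827% called as higher. Without the FC threshold Col6a1 also passed, giving 3 of 48 beside 6.09% of all genes. No laminin or integrin of the rule was a DEG with edgeR, DESeq2 or limma, and 1 of each had an unadjusted p under 0.05 (Lamb1 and Itga5). At an unadjusted p under 0.05 there were 9 of 48 members, 7 with higher and 2 with lower values after ONC, beside 16.7% of all genes.

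Shown here are the bases just upstream of the 3 members that passed the FDR in edgeR's test of exon reads. They come from RefSeq on GRCm38.p6, are read on the strand of each gene, and end just before its outermost annotated base. Capitals mark matches on either strand to one of 4 short motifs, and no match touches another. The AP-1 motif was searched as TGANTCA. The GC box, bound by Sp1 and related factors, was searched as GGGCGG. The CCAAT box was searched by those letters. The motif of the TATA box was searched as TATAAA. The stretch of Col5a3 is chr9:20815118-20815317 on the minus strand, that of Col6a1 is chr10:76726045-76726294 on the minus strand, and that of Col11a1 is chr3:114030290-114030478 on the plus strand.
Col5a3: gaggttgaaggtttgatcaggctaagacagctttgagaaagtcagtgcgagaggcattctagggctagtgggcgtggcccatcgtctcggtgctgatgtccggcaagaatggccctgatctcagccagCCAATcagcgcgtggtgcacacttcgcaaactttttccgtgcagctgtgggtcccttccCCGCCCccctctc
Col6a1: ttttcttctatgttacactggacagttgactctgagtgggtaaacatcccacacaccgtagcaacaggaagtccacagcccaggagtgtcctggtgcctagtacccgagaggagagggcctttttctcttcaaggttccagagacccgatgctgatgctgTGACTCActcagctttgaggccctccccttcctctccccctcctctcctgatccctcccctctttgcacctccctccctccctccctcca
Col11a1: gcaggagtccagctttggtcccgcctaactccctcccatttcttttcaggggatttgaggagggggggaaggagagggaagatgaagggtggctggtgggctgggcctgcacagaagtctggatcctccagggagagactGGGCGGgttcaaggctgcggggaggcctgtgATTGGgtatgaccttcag

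Col5a3 and Col11a1 each held 1 GC box and 1 match to CCAAT, and Col6a1 held 1 AP-1 match and neither of these. None of the 3 held a TATA box. RefSeq gave a window for 38 of the 48 members, 42 windows in all. In the 250 bases before the start, an AP-1 match was found in 1 of the 42 windows, that of Col6a1, against 6.75% of 32851 windows of all genes. GC boxes were found in 26 of 42 (61.9%) against 32.7%, CCAAT in 14 (33.3%) against 33.8%, and TATA boxes in 2 (4.76%) against 12.4%. These are matches of letters and no binding was measured. The members had passed a level threshold while the windows of all genes were not filtered by level. The part of this in the shares was not tested.

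The libraries held 17343945 to 18349331 exon reads in sham and 20019818 to 20358008 in ONC. Exons took 70.9% to 76.6% of the reads on genes in sham and 78.5% to 80.4% in ONC. Because intron reads are part of the divisor of the deposited RPKM, RPKM ran higher in ONC for the typical gene. The median log2 fold change of all genes was 0.01 with TMM scaling and 0.131 with the RPKM divisor. Differences are therefore given in CPM, the exon reads scaled to library size with TMM factors, and RPKM is used for levels between genes. The tissue label fitted its markers, with Nrl, a transcription factor of photoreceptors, at 707 to 793 RPKM. Of 7 retinal ganglion cell (RGC) markers 5 were downregulated DEGs, and the summed RPKM of the 7 was 259 to 266 in sham and 188 to 200 in ONC. Thy1 passed the FDR as lower and Slc17a6, a glutamate transporter gene, as higher (log2 fold change 0.26 ± 0.07, adjusted p = 0.0525). In such whole tissue, fewer cells of a type and less RNA per cell cannot be told apart. Lens RNA differed between the sham pools. The summed RPKM of 6 lens genes was 33.8, 4.9 and 7.23 in sham replicates 1 to 3 and 36.1 to 40.2 in ONC.

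Most chains were expressed at low levels. The median over the 45 chains was 1.44 RPKM, against 7.42 over all genes tested, and the highest chain, Itgb1, lay above 60.5% of these genes. A mean above 1 RPKM was reached by 30 of the 48 members and one above 5 by 9. In single samples the 48 members had between 9 exon reads, for Itgb2 in sham replicate 2, and for chains up to 2334. The standard error of the log2 fold change ranged from 0.06 to 0.50 with a median of 0.16.

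**Figure D1:**
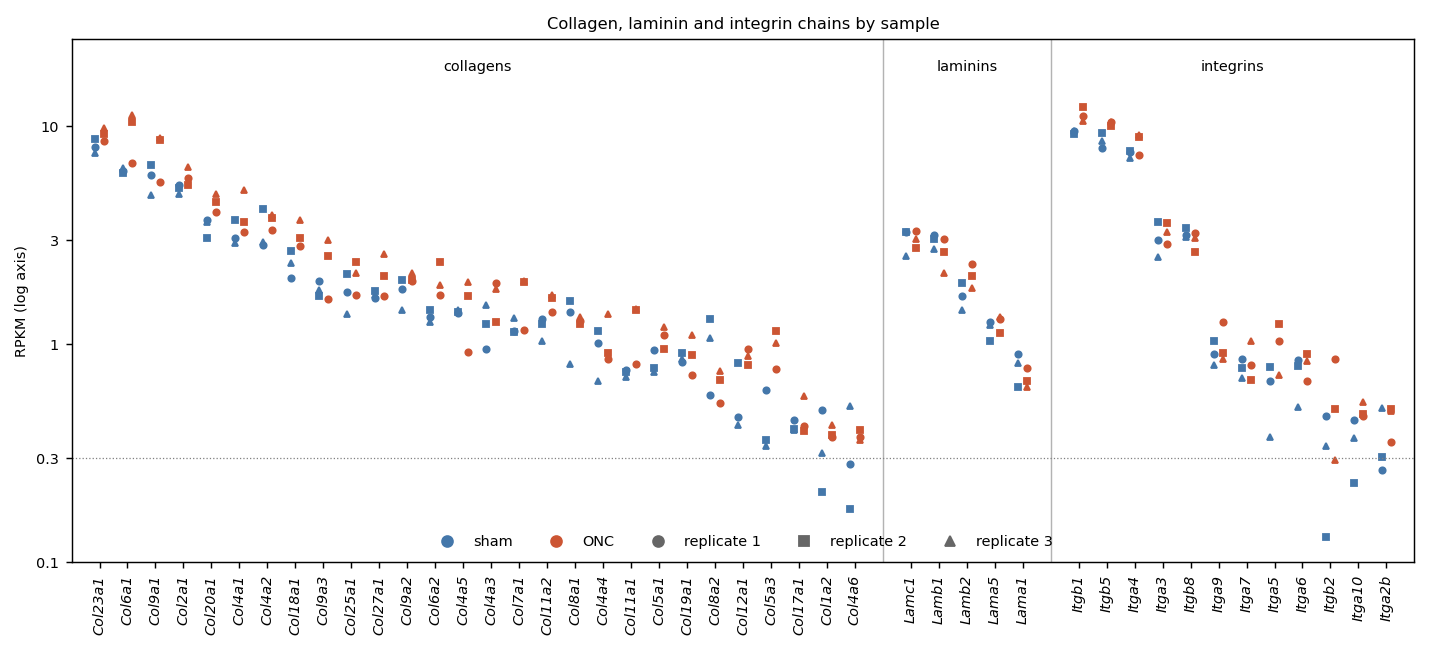
RPKM of the 45 chains in each of the 6 samples on a log axis, with genes ordered by mean level within each family. Blue stands for sham, red for ONC, the symbol for the replicate number and the dotted line for 0.3 RPKM. Levels ran from 10.3 for Itgb1 to 0.354 for Col4a6, and ONC values of Col6a1 in replicates 2 and 3 stood above all its other values.

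The collagens with the highest levels were Col23a1, Col6a1 and Col9a1, with means of 8.66, 7.87 and 6.74 RPKM, followed by Col2a1 with 5.51. Col23a1 encodes a collagen that spans the cell membrane. It had 8.05, 8.78 and 7.51 RPKM in sham and 8.59, 9.21 and 9.83 in ONC. After TMM scaling its log2 fold change was 0.06 ± 0.08 (SE, adjusted p = 0.734), a difference smaller than its error.

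Among the fibrillar collagens, whose chains form the banded fibrils of the matrix, 7 of 11 genes were described. All 7 had a positive log2 fold change, from 0.07 to 1.03, and 2 of them were DEGs. Col5a3 (chr9:20770050-20815034, 67 exons) encodes a chain of type V collagen, a minor partner in larger fibrils. Its CPM were 4.92, 2.91 and 3.0 in sham and 5.95, 8.49 and 7.64 in ONC. All ONC values lay above all sham values, with sham replicate 1 closest to ONC. The means were 3.61 ± 1.13 and 7.36 ± 1.29 (SD, n = 3 each), an FC of 2.04 (log2 fold change 1.03 ± 0.25, adjusted p = 0.0204). These values rest on 51 to 86 reads in sham and 118 to 174 in ONC. Without sham replicate 2, sham replicate 3 or ONC replicate 2 the call was lost, with adjusted p of 0.126, 0.12 and 0.133 and log2 fold changes of 0.89, 0.91 and 0.91.

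Col11a1 (chr3:114030540-114220326, 67 exons) encodes a chain of type XI collagen, which joins type II collagen in the fibrils of cartilage and vitreous. It had 7.27, 7.14 and 7.41 CPM in sham and 7.57, 12.6 and 13.2 in ONC. The sham samples were nearly equal, ONC replicate 1 lay just above them, and ONC replicates 2 and 3 were well above. The means were 7.27 ± 0.135 and 11.1 ± 3.08 (SD, n = 3 each), with an FC of 1.53, close to the threshold (log2 fold change 0.61 ± 0.20, adjusted p = 0.0935). When any library other than ONC replicate 1 was left out the log2 fold change was 0.47 to 0.63 and the call was lost, with adjusted p of 0.189 to 0.388. It was also lost with limma on log2(RPKM + 0.1) and log2(RPKM + 1), with adjusted p of 0.166 and 0.151. Among genes whose mean RPKM passed 1 in either group it was lost too (adjusted p = 0.102). Without ONC replicate 1 its log2 fold change was 0.82 (adjusted p = 0.00165).

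The other 5 fibrillar genes did not pass. Col11a2, the second chain of type XI, had 9.67, 9.12 and 8.29 CPM in sham and 10.1, 11.1 and 11.8 in ONC, without overlap (adjusted p = 0.373). Col5a1, a main chain of type V, had a log2 fold change of 0.28 ± 0.16 (adjusted p = 0.394). Col2a1, the collagen of cartilage and vitreous fibrils, had 36.2, 35.0 and 36.3 CPM in sham and 37.9, 33.4 and 41.4 in ONC (log2 fold change 0.07 ± 0.10). So Col11a1 passed the test and its fibril partner Col2a1 did not, and the difference between the genes was not tested. Col1a2, a chain of type I collagen, was at 0.343 RPKM in sham and 0.395 in ONC, with a log2 fold change of 0.09 ± 0.35.

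Type VI collagen forms beaded filaments from chains encoded by separate genes. Only 2 of its 6 genes were described. Col6a1 (chr10:76708792-76726044, 35 exons) had 32.6, 32.0 and 37.0 CPM in sham and 34.2, 50.4 and 55.6 in ONC. ONC replicate 1 lay within the sham range, and ONC replicates 2 and 3 were above it. The log2 fold change was 0.47 ± 0.13 with an adjusted p of 0.0539, and the FC of 1.38 was under the threshold of 1.5. Without ONC replicate 1 Col6a1 was a DEG (log2 fold change 0.65, adjusted p = 2.56e-05), as it was with the RPKM divisor (0.59, adjusted p = 0.00269). When 1 of sham replicates 1 and 2 and ONC replicates 2 and 3 was left out it did not pass the FDR, with adjusted p of 0.159 to 0.319 and log2 fold changes of 0.32 to 0.43.

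Col6a2 lay on the same chromosome as Col6a1, 85387 bases away. It had 6.58, 7.09 and 6.77 CPM in sham and 8.02, 10.8 and 8.65 in ONC. All ONC values were above all sham values, and the log2 fold change of 0.43 ± 0.18 did not pass (adjusted p = 0.228), except without ONC replicate 1 (0.52, adjusted p = 0.0888). The RPKM of Col6a1 was 4.0 to 6.03 times that of Col6a2 over the 6 samples. Col6a3, which encodes the third chain of the classical trimer, was at a mean of 0.0308 RPKM, with 50 exon reads over all samples.

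The FACIT collagens attach to the surface of fibrils, and 6 of 9 genes were described. None was a DEG, and 5 had a positive log2 fold change. Col9a1, whose product coats type II fibrils, was the highest of them. It had 30.7, 34.0 and 27.1 CPM in sham and 27.4, 40.6 and 42.8 in ONC, so that ONC replicate 1 again lay within the sham range (log2 fold change 0.27 ± 0.14, adjusted p = 0.32). Without ONC replicate 1 it passed the FDR (0.45, adjusted p = 0.0047), and without ONC replicate 3 its log2 fold change was 0.15. Its partner chains Col9a2 and Col9a3 had log2 fold changes of 0.10 ± 0.19 and 0.30 ± 0.21. Col12a1 had 7.15, 12.5 and 7.18 CPM in sham and 14.1, 11.4 and 12.8 in ONC. Here sham replicate 2 reached the ONC values (log2 fold change 0.51 ± 0.19, adjusted p = 0.177), and without it Col12a1 was a DEG (log2 fold change 0.83, adjusted p = 0.0184). Col20a1 had a log2 fold change of 0.24 ± 0.12 and Col19a1 one of -0.06 ± 0.16.

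All 6 genes of type IV collagen, the network collagen of basement membranes, were described, and none had an unadjusted p under 0.05. Their log2 fold changes ran from -0.03 for Col4a5 to 0.29 for Col4a3. Col4a1 and Col4a2 encode the chains of the common network and lie next to each other in head-to-head orientation, with 2 bases between them in the files. Col4a1 had 3.06, 3.70 and 2.90 RPKM in sham and 3.27, 3.64 and 5.08 in ONC. Col4a2 had 2.85, 4.16 and 2.94 in sham and 3.33, 3.80 and 3.91 in ONC. The ratio of Col4a1 to Col4a2 stayed between 0.89 and 1.3 with a median of 0.986. Col4a3, Col4a4 and Col4a5 encode the chains of another network. Col4a3 and Col4a4, 71 bases apart, had a ratio of 0.942 to 2.23. Col4a5 exceeded its neighbour Col4a6 by 2.45 to 7.99 times, and Col4a6, at 0.354 RPKM, was the chain just inside the level threshold.

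Of the short chain collagens, Col8a2, known from the membrane under the corneal endothelium, had lower values in ONC. Its CPM were 3.32, 7.42 and 6.65 in sham and 2.98, 3.61 and 4.09 in ONC. Sham replicate 1 lay among the ONC samples. The log2 fold change was -0.70 ± 0.28 (adjusted p = 0.206), and Col8a2 was called as lower without sham replicate 1 (-0.99, adjusted p = 0.043) and without a filter on RPKM (adjusted p = 0.0858). Sham replicate 1 was also the sham pool with lens RNA nearly as high as in ONC, and the part of lens RNA in the values of Col8a2 was not tested. Col8a1 had a log2 fold change of -0.09 ± 0.20.

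Col18a1, the source of endostatin and a component of basement membranes, had 15.4, 20.4 and 19.7 CPM in sham and 20.8, 21.6 and 26.7 in ONC. The groups did not overlap, but the gap between sham replicate 2 and ONC replicate 1 was small (log2 fold change 0.32 ± 0.14, adjusted p = 0.235), and Col18a1 passed the FDR without the latter (0.38, adjusted p = 0.0746). Col7a1, the collagen of anchoring fibrils, had a log2 fold change of 0.34 ± 0.16 (adjusted p = 0.305), which was 0.53 without ONC replicate 1 (adjusted p = 0.0107). The transmembrane collagens Col25a1 and Col17a1 had values of 0.13 ± 0.14 and 0.03 ± 0.29.

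**Figure D2:**
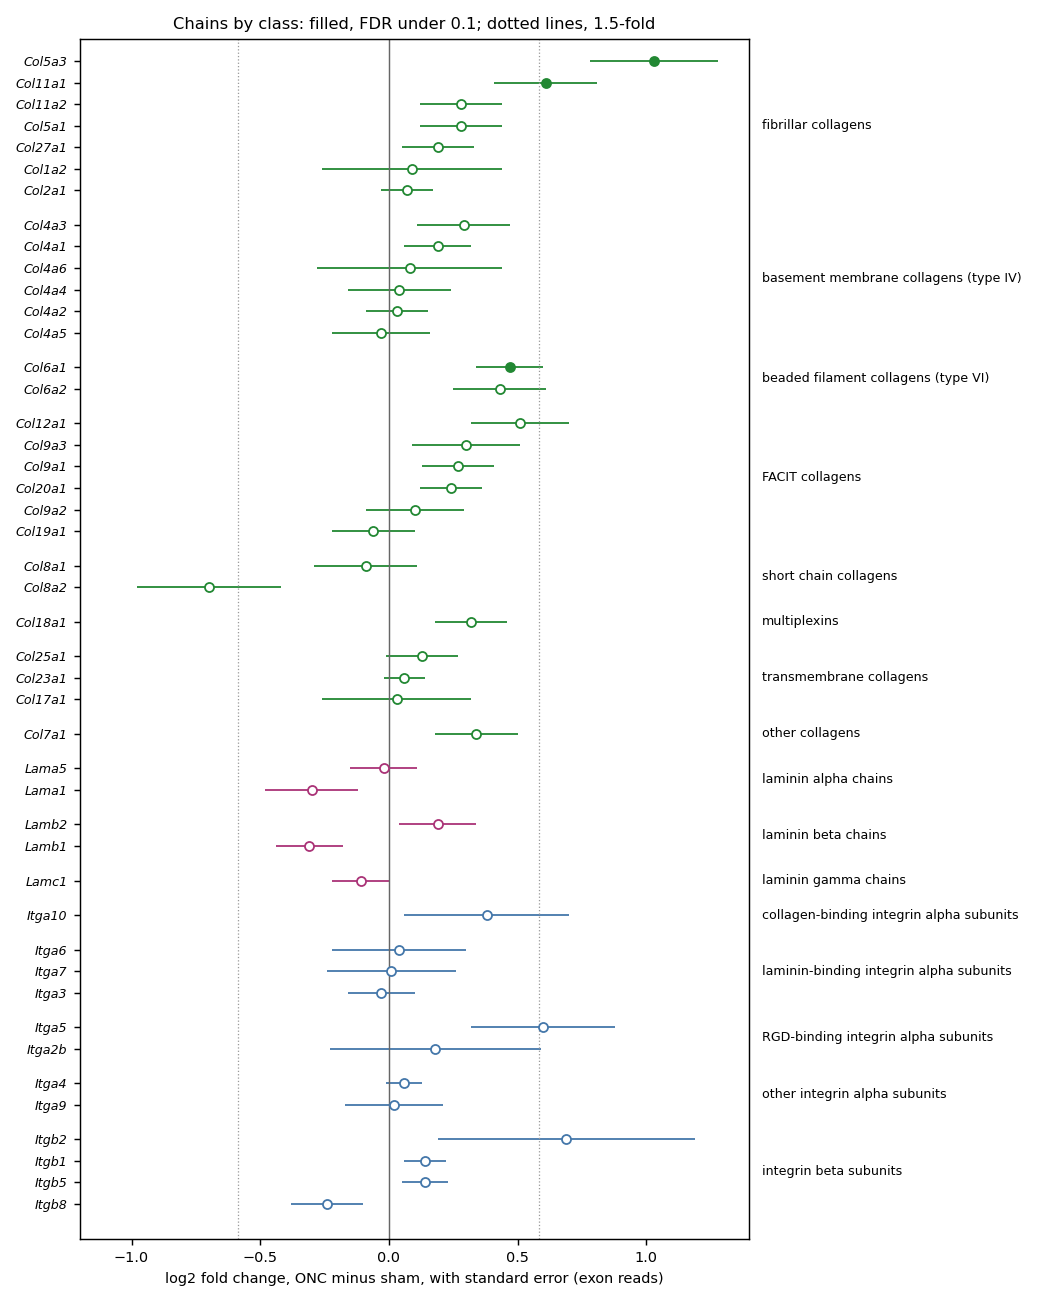
Log2 fold changes of exon reads, ONC minus sham, for the 45 chains grouped by class, with bars for the standard error. Filled points passed an FDR of 0.1 and dotted lines mark an FC of 1.5. Col5a3, Col11a1 and Col6a1 are filled, at 1.03, 0.61 and 0.47, and Col8a2 lies farthest to the left at -0.70.

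Of the 28 collagens 24 had a log2 fold change above 0, with a median of 0.19, against 52.3% of all genes and a median of 0.01. Over the alternatives that tested all 28, this count ran from 19, without ONC replicate 3, to 27. The summed RPKM of the 28 genes was 58.3, 62.7 and 55.3 in sham and 62.3, 75.7 and 83.5 in ONC, a mean of 58.8 ± 3.75 against 73.8 ± 10.7 (SD, n = 3 each). ONC replicate 1 was level with the sham samples and replicates 2 and 3 were above them. Over all 48 members 36 were above 0, with a median of 0.09, and with the RPKM divisor 43 were.

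After these values had been seen, the members were counted in which ONC replicate 1 did not exceed the sham samples while ONC replicates 2 and 3 did. There were 7 of 48 (14.6%), namely Col6a1, Col7a1, Col9a1, Col9a3, Col20a1, Col27a1 and Itga4, against 9.03% of all genes. The same pattern with ONC replicate 2 as the low one held for 6 members (12.5%) against 3.8% of all genes, and with replicate 3 for 2 members (4.17%) against 4.25%. The groups did not overlap for 5 of 48 members that were higher in ONC, all collagens (Col5a3, Col11a1, Col11a2, Col6a2 and Col18a1), beside 11% of all genes. They did not overlap for 2 of 48 that were lower, Lamb1 and Itgb8, beside 10.8%. On the RPKM scale the higher count was 11 of 48, beside 25.4% of all genes, and the lower count 0, beside 3.45%.

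The described laminins had a summed RPKM of 9.63 ± 0.796 in sham and 9.66 ± 0.964 in ONC (SD, n = 3 each). This difference of 0.029 became -0.791 when the values were rescaled to exon reads, so its direction turned. Of the 11 laminin genes 5 were described, those for the chains Lama1, Lama5, Lamb1, Lamb2 and Lamc1. None was a DEG, and 4 of the 5 had a log2 fold change below 0, with a median of -0.11. Lamc1, the gamma chain of most laminins, was highest at 3.03 RPKM. Its CPM were 32.8, 32.9 and 27.8 in sham and 32.3, 25.6 and 28.8 in ONC (log2 fold change -0.11 ± 0.11, adjusted p = 0.673), and its sign turned with the RPKM divisor.

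Both described beta chains were measured at 2.79 RPKM for Lamb1 and 1.86 for Lamb2. Lamb1 had 24.1, 23.1 and 22.6 CPM in sham and 22.3, 18.5 and 15.3 in ONC. All ONC values were below all sham values, ONC replicate 1 by a small step (log2 fold change -0.31 ± 0.13, adjusted p = 0.228). Without ONC replicate 1 it passed the FDR as lower (-0.46, adjusted p = 0.0193), and without ONC replicate 3 its log2 fold change was -0.19. Lamb2, the beta chain of synaptic and vascular laminins, had 12.2, 14.1 and 11.6 in sham and 16.7, 14.0 and 12.7 in ONC (log2 fold change 0.19 ± 0.15, adjusted p = 0.536). The alpha chain Lama1, known from the inner limiting membrane, had 11.3, 8.02 and 11.3 in sham and 9.43, 7.80 and 7.59 in ONC (log2 fold change -0.30 ± 0.18). Lama5 had a log2 fold change of -0.02 ± 0.13.

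Of the 20 integrin subunits in the rule, 12 were described, and 10 of these had a log2 fold change above 0, with a median of 0.10. None passed the FDR. The summed RPKM was 35.8 ± 1.42 in sham and 41.5 ± 0.985 in ONC (SD, n = 3 each), a difference of 5.7. Rescaled to exon reads the difference was 4.03, but this rescaling raises every value, so the sizes cannot be compared directly. Itgb1, the beta partner of the collagen and laminin receptors, was the highest chain at 10.3 RPKM. It had 52.6, 50.6 and 57.3 CPM in sham and 59.4, 62.3 and 55.5 in ONC, and the groups overlapped (log2 fold change 0.14 ± 0.08, adjusted p = 0.394). Itgb5, which pairs with Itgav, had 34.2, 40.3 and 40.4 in sham and 44.2, 39.7 and 42.7 in ONC (log2 fold change 0.14 ± 0.09, adjusted p = 0.479). Itgb8, another partner of Itgav, had 12.9, 13.9 and 13.9 in sham and 12.8, 9.95 and 11.8 in ONC (log2 fold change -0.24 ± 0.14, adjusted p = 0.434).

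Itga4, which with Itgb1 binds fibronectin, was the highest alpha subunit at 7.98 RPKM. It had 98.3, 99.1 and 102 CPM in sham and 92.9, 106 and 112 in ONC (log2 fold change 0.06 ± 0.07, adjusted p = 0.735). Only 3.33% of its exon reads spanned an exon junction, against a median of 60.8% over the 48 members. Its span (chr2:79255426-79333114, 28 exons) overlaps that of Cerkl, a gene of photoreceptors, by 624 bases in the files, and Cerkl was at 11.9 to 17 RPKM. The library kit did not mark strand, so reads of both genes in the shared bases cannot be told apart. The exons of Itga4 add up to 9832 bases, and the source of its reads without a junction was not tested. The level of Itga4 is therefore uncertain.

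The other alpha subunits were present at lower levels. Itga5, the fibronectin receptor subunit, had 3.89, 4.50 and 2.35 CPM in sham and 5.80, 6.58 and 3.94 in ONC. In each group replicate 3 was the lowest, and ONC replicate 3 lay below sham replicate 2 (log2 fold change 0.60 ± 0.28, adjusted p = 0.285). The laminin receptor subunits Itga3, Itga6 and Itga7 had log2 fold changes of -0.03, 0.04 and 0.01, with standard errors of 0.13, 0.26 and 0.25. Itga3 was the most abundant of them at 3.15 RPKM. Of the 4 collagen-binding subunits only Itga10 was described, at 0.424 RPKM, and Itga1, Itga2 and Itga11 were at 0.249, 0.152 and 0.0915.

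**Figure D3:**
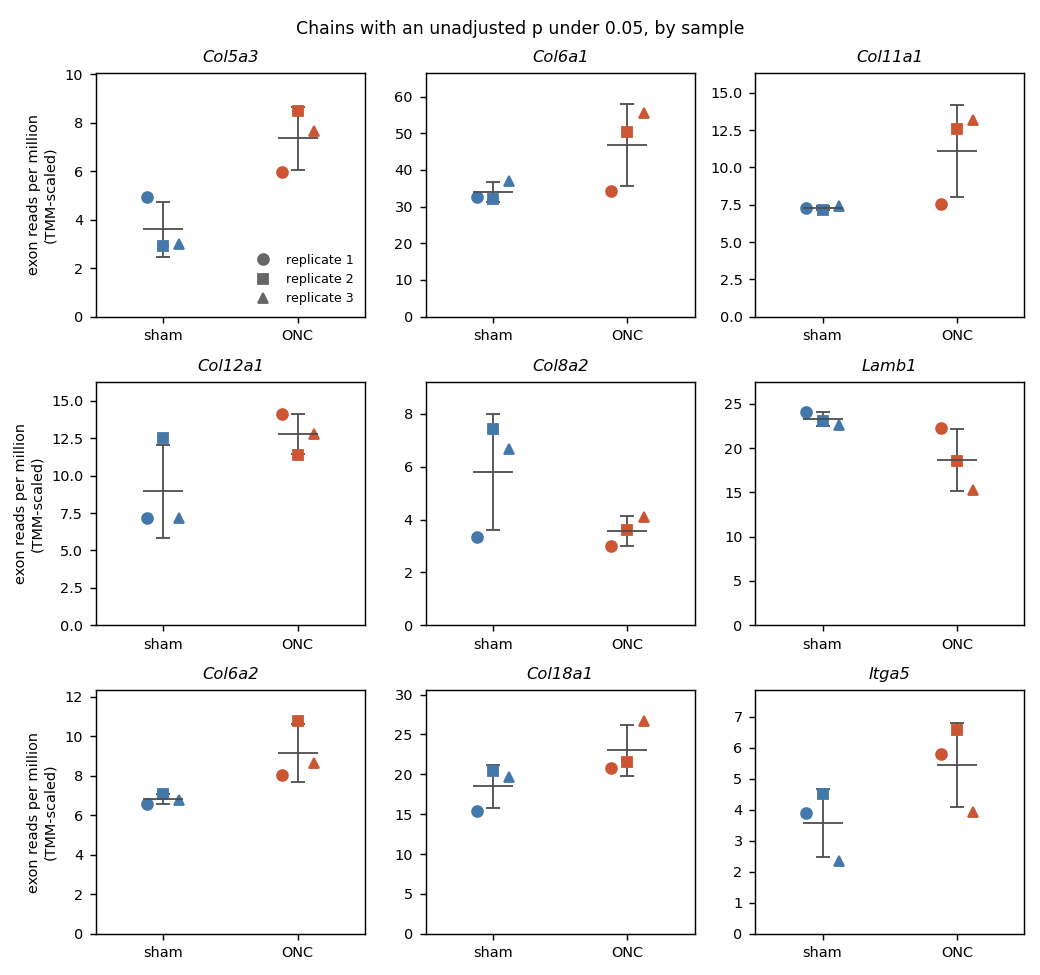
TMM-scaled CPM of exon reads in each sample for the 9 chains with an unadjusted p under 0.05, with the mean and SD of each group of 3. Col5a3 lies between 2.91 and 4.92 in sham and between 5.95 and 8.49 in ONC, and for Col6a1 and Col11a1 ONC replicate 1 stands next to the sham samples.

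Integrin subunits with letters in place of numbers are outside the rule and were examined as companions. Itgam, the alpha subunit of the complement receptor of microglia and macrophages, was an upregulated DEG. Its RPKM was 0.762, 0.464 and 0.506 in sham and 1.15, 1.11 and 0.939 in ONC, without overlap (FC 1.70, log2 fold change 0.76 ± 0.24, adjusted p = 0.0903). Its beta partner Itgb2 had 1.77, 0.494 and 1.41 CPM in sham and 3.13, 1.76 and 1.06 in ONC, with overlap (log2 fold change 0.69 ± 0.50, adjusted p = 0.52). Itgav, the alpha partner of Itgb5 and Itgb8, had 5.44 to 6.39 RPKM in sham and 5.01 to 7.01 in ONC (log2 fold change -0.16 ± 0.11, adjusted p = 0.497). Itgal, Itgax, Itgad and Itgae did not reach 0.3 RPKM in the mean of a group and were not tested.

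Further genes of the pathway were counted from lists drawn up by function. Of 15 other matrix proteins 11 were tested, 1 was an upregulated DEG and 1 more passed the FDR as higher. The DEG was Spp1, the secreted integrin ligand osteopontin, which RGCs and macrophages are known to express. It had 12.4, 8.54 and 8.90 RPKM in sham and 14.7, 21.5 and 15.4 in ONC, without overlap (log2 fold change 0.67 ± 0.14, adjusted p = 0.00772). Sparc, a collagen-binding glycoprotein, rose with a log2 fold change of 0.33 ± 0.07 (adjusted p = 0.00608). Fibronectin (Fn1) and vitronectin (Vtn) had log2 fold changes of -0.00 ± 0.09 and -0.01 ± 0.05.

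Of the 16 adaptors and kinases that act behind integrins, all were tested and none was a DEG. Zyx, a protein of focal adhesions, passed the FDR as higher (log2 fold change 0.51 ± 0.11, adjusted p = 0.00925). Tln2, a form of the integrin activator talin, passed it as lower (-0.42 ± 0.07, adjusted p = 0.00137). At an unadjusted p under 0.05 there were 4 of the 16, namely Tln2, Zyx, Pxn and Flna, beside 16.7% of all genes. The median of the list was 0.01. Of 10 other matrix receptors, such as the dystroglycan gene Dag1 and the syndecans, 9 were tested and none passed. Bcam and Cd47, 2 of these 9, had an unadjusted p under 0.05 with lower values, beside 16.7% of all genes in either direction. None of 18 tested collagen-modifying enzymes and chaperones passed either, with 0 at an unadjusted p under 0.05 and a median of -0.01. The collagen chaperone Serpinh1 had a log2 fold change of -0.11 ± 0.17 and the hydroxylase subunit P4ha1 one of -0.14 ± 0.08.

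Markers of cells that make matrix were measured beside these genes. The sums are in RPKM, which ran higher in ONC for the typical gene, and were not rescaled to exon reads. The summed RPKM of 8 endothelial markers was 36.2 to 42.9 in sham and 36.6 to 44.6 in ONC, and that of 8 mural markers 11.1 to 14.0 and 11.8 to 13.0, so both overlapped. Of 6 fibroblast markers of sclera or choroid, the summed RPKM was 1.95 to 2.63 in sham and 2.83 to 3.55 in ONC. Whether this gap remains on the CPM scale was not tested. The defining genes Dcn, Lum, Dpt and Ogn were too low to be tested. Dcn had 0.125, 0.1 and 0.039 RPKM in sham and 0.398, 0.135 and 0.259 in ONC. Its groups did not overlap in RPKM, but sham replicate 1 and ONC replicate 2 lay close together. Overlap of Dcn after TMM scaling was not tested. Ogn reached at most 0.258, and Lum and Dpt were at or near 0. Neither of the 2 tested markers, Pdgfra and Postn, passed the FDR (adjusted p of 0.727 and 0.846). The 6 Muller glia markers summed to 735 to 835 and 798 to 839. For 2 astrocyte genes, Gfap and Pax2, the sum was 4.51 to 6.09 in sham and 6.37 to 8.40 in ONC. After TMM scaling the groups overlapped for Gfap (adjusted p = 0.126 in edgeR's test), and Pax2 was too low to be tested. For 8 microglia markers the sum was 5.84 to 8.29 in sham and 8.19 to 9.95 in ONC.

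Pigment epithelium (45.1 to 72.3 over all 6 samples), melanocyte (4.73 to 7.69) and oligodendrocyte (5.01 to 6.72) lists overlapped between the groups. Among the lens genes Cryaa was an upregulated DEG (FC 2.49, adjusted p = 0.0469). It had 19.6, 3.05 and 5.11 RPKM in sham and 27.5, 21 and 25.5 in ONC, so its groups did not overlap in RPKM. After TMM scaling they did. The part of these cell types in the collagen values was not tested. Without sham replicate 1, the sham pool rich in lens RNA, Col5a3 remained a DEG. Its log2 fold change moved from 1.03 to 1.31. Col11a1 kept its log2 fold change of 0.61 while its adjusted p moved from 0.0935 to 0.189. The sham pools left were those low in lens RNA, so this omission cannot test the part of lens RNA.

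**Figure D4:**
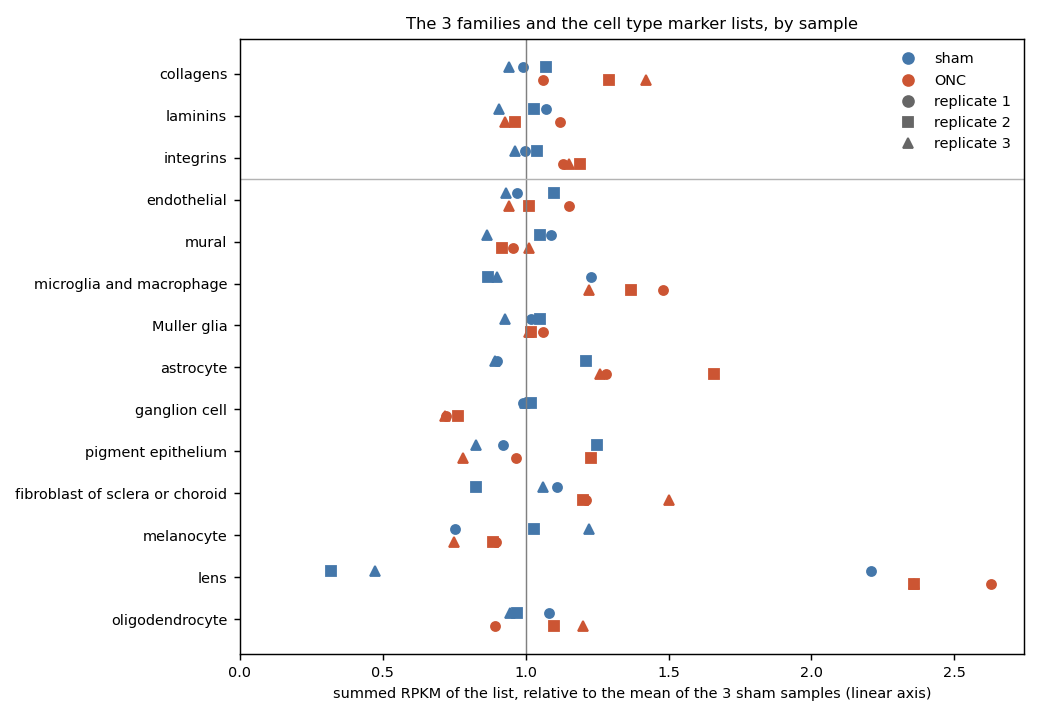
Summed RPKM of the 3 families and of 11 cell type marker lists in each sample, divided by the mean of the 3 sham samples. Collagens were at 1.06, 1.29 and 1.42 in ONC replicates 1 to 3, ganglion cell markers at 0.721, 0.763 and 0.718, and lens genes at 2.21, 0.32 and 0.472 in sham replicates 1 to 3.

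Reads on introns gave a readout of the same genes that the exon counts do not hold. Of the 48 members 36 had enough intron reads to be tested, and none was called by edgeR, beside 2.74% of 13317 genes. Over all genes 365 were called, 64 of them higher in ONC, and without TMM 88 of 142 were higher. At an unadjusted p under 0.05 there were 4 of 36 members, all with lower values in ONC, beside 17.4% of all genes in either direction. The lowest p was that of Col4a2, with 44, 50 and 86 intron reads in sham and 17, 30 and 22 in ONC. These raw counts did not overlap (log2 fold change after TMM scaling -1.33 ± 0.39, adjusted p = 0.106), whereas its exon reads had a log2 fold change of 0.03 ± 0.12. The other 3 were Itga9 and the name matches Itgb3bp and Col4a3bp. Col11a1 had 32, 14 and 39 intron reads in sham and 12, 3 and 23 in ONC (log2 fold change -1.14 ± 0.65, adjusted p = 0.385), a sign opposite to that of its exon reads. Col5a3 and Col6a1 had too few intron reads to be tested, with 0 to 15 and 0 to 20 per sample.

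The 31 genes of the rule under the level threshold comprised 15 collagens, 6 laminins, 8 integrins and 2 name matches. Just outside the threshold lay Col22a1, Lamc3 and Col15a1 with mean levels of 0.299, 0.294 and 0.276 RPKM, and just inside it Col4a6, Col1a2 and Itga2b with 0.354, 0.369 and 0.406. Those 3 outside were tested, since 1 group mean exceeded 0.3, and 0 were DEGs. Their adjusted p ranged from 0.465 to 0.811. The main collagens of fibroblasts and scar, Col1a1 and Col3a1, were at 0.173 and 0.0756 RPKM, and the platelet integrin subunit Itgb3 was at 0.0945. Itgb2l had no exon read in any sample.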

How the data were processed

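RNA of 3 sham and 3 ONC pools was sequenced by the authors as paired reads after an Illumina TruSeq library preparation and mapped with CLC Genomics Workbench. They deposited raw counts of exon reads and gene reads per gene, in which an intact pair counts as 1 and broken pairs are left out, and the RPKM. The deposited RPKM was recomputed from the counts to within 0.0005. The labels name mm9, but the positions match GRCm38, which was checked against RefSeq for 75 of 78 members (both ends within 5000 bases).

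The 13670 genes whose mean RPKM passed 0.3 in either group were tested with edgeR 4.0.16 in R 4.3.3 (TMM, glmQLFit, glmQLFTest), and p-values were adjusted by Benjamini-Hochberg over all of them. The standard error is the log2 fold change divided by the root of the F statistic. Intron reads are gene reads minus exon reads, tested where a sample held 10 on average (13317 genes). Overlap between groups refers to TMM-scaled CPM of exon reads unless RPKM is named. The code of the fits was run on simulated counts with equal dispersion for all genes and planted changes larger than those of most members. That run cannot show how well calls of small changes or low genes hold. Named with values by sample were members that passed the FDR, the 3 highest of each family, members past an FC of 1.5 without overlap, called companions and further members added after their values were seen. The members and lists were chosen with earlier results of these data known. Alternatives used DESeq2 1.42.0 and limma 3.58.1, and figures matplotlib 3.10.9. One marker gene and the summed level of its list are not reported here.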

Additional observations from a re-analysis of the deposited data

How the results depend on the processing

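The 2 member calls from exon reads became 4 with the RPKM divisor (Col12a1 and Col6a1 added), where all calls numbered 350, 263 of them higher, against 113 of 227 with TMM. They became 1 with limma on log2(RPKM + 0.1), 0 with limma on log2(RPKM + 1) and 1 with an FDR under 0.05. Among the 35 members whose mean RPKM passed 1 in either group, which leaves out Col5a3, there were 0. DESeq2's Wald test, DESeq2 size factors, no TMM, filterByExpr and unique reads each gave 2, and no filter on RPKM gave 3, with Col8a2 added as lower. Leaving out 1 library gave 0 to 3 members and 153 to 353 genes. For intron reads it gave 0 to 1 members, the 1 being Col4a2 without sham replicate 1, while the count over all genes ranged from 0 to 876. With no FC threshold 833 genes passed. Replicate numbers are shared by the labels only, and same-numbered samples did not deviate together (correlations of -0.047, -0.033 and 0.003). With the replicate number as a block 1 member, Col5a3, and 222 genes were called, and Col11a1 had a log2 fold change of 0.58 (adjusted p = 0.114). The laminin sum turned from a difference of 0.029 to -0.791 RPKM when rescaled to exon reads. Lamc1 turned to 0.01 with the RPKM divisor and with limma at either pseudocount, and Itga4 to -0.01 without ONC replicate 3, the lowest of its values with 1 library left out, which reached 0.13. The causes were not tested. Of the 48 members 28 kept their sign in all alternatives, 23 as higher and 5 as lower. The integrin sum moved from a difference of 5.7 to 4.03 RPKM. With 3 pools a group and standard errors around 0.16, small changes of low genes could not be detected.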

Other observations

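Exons held a larger share of the reads of a gene in ONC than in sham for 36 of the 48 members. For Col4a2 the share was 89.4% in sham and 96.3% in ONC, for Itga9 50.3% and 68.5%, and for Itgb3bp 44.8% and 58.1%. The share over whole libraries moved in the same direction, and the part of the members' own introns in it was not tested. Under 10% of exon reads spanned an exon junction in 4 members. They were Itga4 with 3.33%, Col19a1 with 6.08%, and Col8a1 and Col8a2 with 8.21% each, and the latter pair has only 4 exons per gene. Of these, Itga4 alone overlaps another gene with RPKM above 0 in the files. The bearing of that overlap on the low junction share of Itga4 was not tested. Itgb1bp1, a name match, overlaps Asap2 by 366 bases, and 91.2% of its exon reads were unique, the lowest share of the 48.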
